A study of Homo sapiens with 6 samples.

Results

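The genes described here are 10 chains of receptors for cytokines other than interleukin-6 (IL-6): IL7R, IL4R, IL21R, IL2RG, OSMR, IL10RA, IL10RB, IFNGR1, IFNGR2 and CSF2RB. They were chosen by name from 60325 gene rows, with the requirement of a value in at least 4 of the 6 deposited tables, and all 10 met it. The cells were THP-1, an established human monocytic leukaemia line used as a model of monocytes. IL-6 libraries (recombinant human IL-6) were taken after 6, 24 and 48 h, and control libraries without it at the same times, with 1 RNA-seq library for each agent and time. The sources used here do not give the dose of IL-6, its supplier or the culture medium. The question asked of these genes was which receptors for other cytokines differ when the cells are given IL-6.

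Cytokine receptors of this kind have no kinase of their own and signal through JAK kinases bound to their cytoplasmic tails, which phosphorylate STAT transcription factors. A chain that recognises the ligand pairs with a second chain, often one shared by several cytokines. IL2RG, the common gamma chain, serves several interleukins besides those of IL7R, IL4R and IL21R, and IL6ST (gp130), the signalling chain of the IL-6 receptor, also pairs with OSMR for oncostatin M. IL10RA with IL10RB binds interleukin-10, IFNGR1 with IFNGR2 binds interferon gamma, and CSF2RB is the common beta chain for GM-CSF, interleukin-3 and interleukin-5. Monocytes are known to express most of these chains, whereas IL7R and IL21R are best known from lymphocytes.

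The deposited values are log2 values that the authors centred on each gene, so 0 is the gene's own mean over the libraries with a value. Levels, in an arbitrary unit, were worked out from those values, with a smallest step of 0.001 and a floor of 0.01. They were taken as length-normalised, because the level at percentile 0.5 of genes with 300 to 600 bases was 0.0649, against 0.0164 in genes with 1000 to 2000 bases. Differences between IL-6 and control are in log2 units, where 1 is a doubling. Between 22209 and 22733 genes had a value in the IL-6 libraries, against 22000 to 23108 in control libraries, and the sequencing depth is unknown. As a check of the treatment, PIM1, a kinase gene known as a STAT3 target, differed by 2.67 ± 0.18 over the 3 pairs (limma SE, adjusted p = 0.000205). All 13 monocytic markers, among them CD14, CD33 and SPI1, had values in every library. Of 13 T and NK cell markers, CD3E, CD2, TRBC2, LCK and ZAP70 had no value in any library, CD3D, CD3G, CD5, CD7 and CD8A had 1 to 3 values, and GNLY had 5. TRAC and NKG7 had 6, TRAC at a mean level of 0.755. NKG7 had no recoverable level and was treated as high. Among monocytic markers FCGR1A, an IgG receptor gene, rose with IL-6 by 0.65 ± 0.10 (limma adjusted p = 0.0339), the 1 of 13 that was called. Most of the list went the other way, with 3 positive and 10 negative estimates. Its median was -0.24, against -0.03 over all tested genes.

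The chains with a recovered level ran from IFNGR2, at a mean level of 19.1 over the 6 libraries (range 16.3 to 24.3), to OSMR at 0.666 over 5. Between them stood IL10RA at 10.3 (5.19 to 15.9), CSF2RB at 8.72 (4.77 to 11.5), IL4R at 6.99 (3.02 to 11.4) and IL2RG at 4.34 (2.01 to 7.0). IL21R followed at 2.84 (0.483 to 4.93) and IL7R at 2.24 (0.130 to 7.51). The ranges of IFNGR2 and IL10RA did not overlap, and every other pair of neighbours in this order did. IL10RB and IFNGR1 had no recoverable level and were treated as high, because matching ended at a level of 100.

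Over the 3 time-matched pairs, no tested chain passed the threshold for a difference between IL-6 and control. Of the 10 genes 9 could be tested, OSMR lacking a value in the control library of 6 h, and 0 of the 9 were called by limma at an adjusted p under 0.05. That call was made for 0.259% of the 13509 genes tested, and for 0.252% in the direction of higher with IL-6. At an unadjusted p under 0.05, 4 of the 9 were higher with IL-6 (IL4R, IL7R, IFNGR1 and IL21R), where 3.73% of all tested genes were higher. The 9 had a median difference of 0.34, against -0.03 over all tested genes, with 7 positive and 2 negative estimates. IL7R, IL4R, IL21R, IFNGR1, IFNGR2 and CSF2RB, 6 of the 9, were higher with IL-6 at each of the 3 times, as were 12.5% of all tested genes. With equal library medians these were again 6 of 9, beside 15.6% of all tested genes. Every IL-6 library lay above every control library for IL7R, IL4R and IFNGR1, as for 3.51% of tested genes. These are bulk libraries, in which more cells of a kind and more RNA per cell cannot be told apart. The genes were listed with earlier results of these data known, so the counts describe them and do not test the group.

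**Figure D1:**
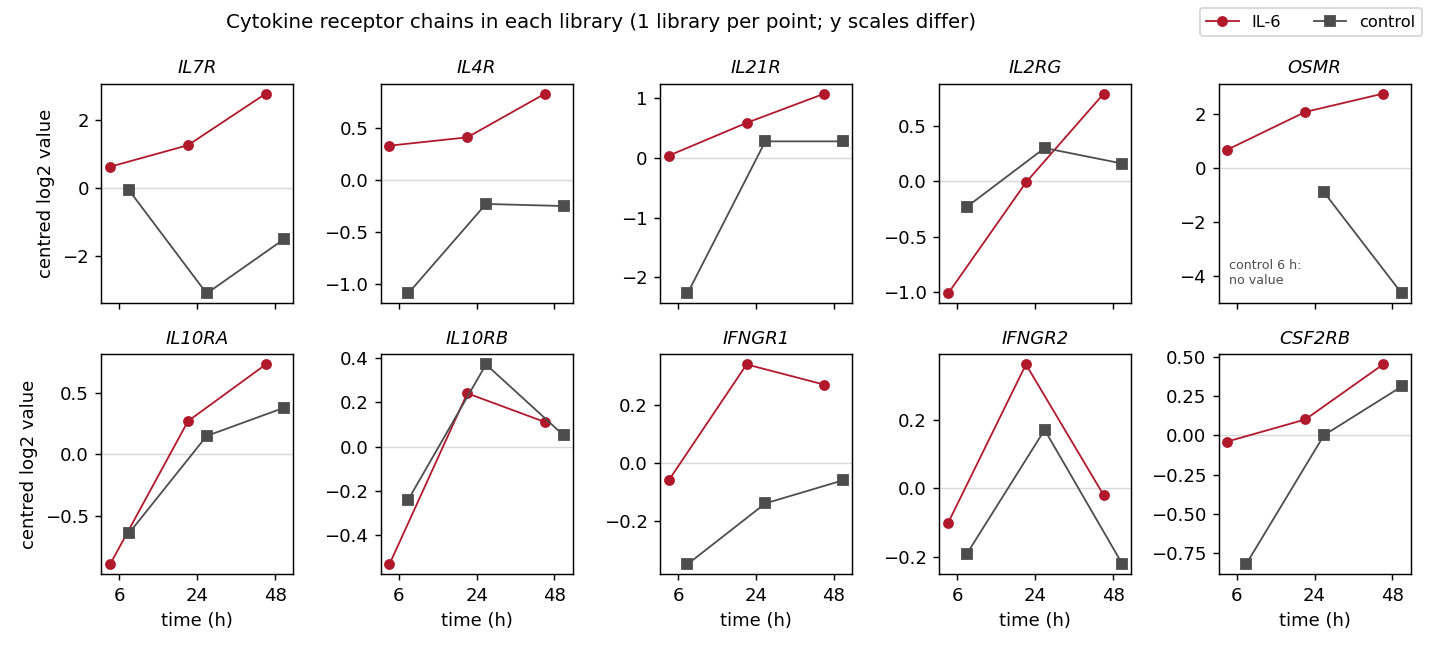
Centred log2 value of each receptor chain (y axis, scale set for each gene) at 6, 24 and 48 h (x axis), with red circles for IL-6 and grey squares for control libraries, 1 library per point. IL7R, IL4R, IL21R, OSMR, IFNGR1, IFNGR2 and CSF2RB lie higher with IL-6 at every time with both values. The order of the agents changes with time for IL2RG, IL10RA and IL10RB. Symbols of the agents are set apart sideways.

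IL7R (ENSG00000168685.15, chr5:35852695-35879603, plus strand, GRCh38) encodes the alpha chain of the interleukin-7 receptor, which also serves TSLP together with CRLF2. Its level was 1.70, 2.63 and 7.51 at 6, 24 and 48 h in IL-6 libraries, against 1.06, 0.130 and 0.395 in control libraries. The 3 IL-6 libraries were the highest of the 6, and the gap was small at 6 h and wide later. The differences for the 3 times, in order, were 0.67, 4.33 and 4.25, and the last 2 are folds of 20.2 and 19.0. Among the 13509 tested genes, IL7R held rank 932 from the highest difference at 6 h, rank 3 at 24 h and rank 6 at 48 h. Over the 3 pairs its estimate was 3.09 ± 0.74 (limma SE, adjusted p = 0.295), with an SD of 2.09 between the 3 differences. In that fit, change of the difference between times counts as error. Without the 6 h pair it was 4.29 ± 0.47 (limma adjusted p = 2.04e-06), and it was then the only one of the 9 tested chains to pass, among 0.896% of all tested genes. That fit rests on 4 libraries, with 1 residual degree of freedom among them. IL7R met the filter of mean level 1 through its IL-6 libraries, at a mean level of 3.95 with IL-6 and 0.530 in control libraries, so its place among the tested genes is not independent of the difference. The effect at 6 h minus the mean effect at 24 and 48 h was -3.62 ± 0.81, which did not pass (limma adjusted p = 0.0607), nor did it with equal library medians (-3.68, limma adjusted p = 0.0968). In that comparison 0 of the 9 chains and 0.222% of tested genes were called by limma. At an unadjusted p under 0.05 IL21R was the 1 chain with the higher effect at 6 h (1.76 ± 0.74), as were 2.11% of tested genes.

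The wide differences of IL7R rest in part on very low control levels. On a log2(level + 1) scale, which damps low values, the difference at 24 h was 1.68 in place of 4.33. Genes of mean level 1 to 10, like IL7R, were at least 2-fold apart in either direction at 24 h in 14.0% of cases, against 7.0% of all tested genes. IL7R is also a known marker of T cells, whose genes CD3E, CD2, LCK and ZAP70 were without a value in all 6 libraries. TRAC, the 1 T and NK marker with 6 levels, stood at 0.272, 0.216 and 1.16 with IL-6, against 0.234, 1.53 and 1.12 in control libraries, with 1 library per condition and no test. NKG7, the other T and NK marker with 6 values, had an estimate of 0.65 ± 0.14 for IL-6 (limma adjusted p = 0.174), and the part of T or NK cells in the IL7R difference was not tested.

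OSMR (ENSG00000145623.13, chr5:38845858-38945596, plus strand) encodes the oncostatin M receptor chain that pairs with gp130. Its level was 0.406, 1.07 and 1.71 at 6, 24 and 48 h in IL-6 libraries, whereas control libraries had no value at 6 h, 0.135 at 24 h and the floor value of 0.01 at 48 h. All 3 IL-6 libraries were above both listed control values. At 24 h, the 1 time with 2 values above the floor, the difference was 2.98, or 7.89-fold. Fitted on its 5 listed values, OSMR did not pass, at 5.20 ± 1.09 (limma adjusted p = 0.198). The IL-6 library of 6 h has no control value in that fit, so the estimate rests on the pairs of 24 and 48 h. Their differences were 2.98 and 7.42, the second against a control value at the floor. With the missing value put at the floor the estimate was 5.25 ± 0.84 and passed (limma adjusted p = 0.0377). The call therefore depends on how that 1 missing value is treated, and both fits were chosen after the values were seen. OSMR was low in every library, and its mean level of 0.666 was also under the filter of mean level 1. Both fits therefore set that filter aside for OSMR. In the fit that passed, the control values of 6 and 48 h were both at the floor. RICTOR, on the opposite strand, overlaps OSMR over 7677 bases of gene span, introns included, and the reads do not mark strand. RICTOR had differences of -0.91, -1.10 and 0.04 at 6, 24 and 48 h, at a mean level of 2.47. Its share in the OSMR values was not tested.

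For IL6ST, the gp130 partner chain of OSMR for oncostatin M, no difference passed the test. IL6ST was at levels of 10.2, 9.74 and 8.84 with IL-6, against 9.38, 11.6 and 8.78 in control libraries, a difference of -0.04 ± 0.19 (limma adjusted p = 0.971). For LIFR, whose product is the other partner of gp130 for oncostatin M, no library listed a value. OSM, the gene of the ligand, was at levels of 1.69, 0.792 and 1.53 with IL-6, against 0.377, 0.401 and 0.187 in control libraries. The 3 IL-6 values of OSM were the highest of the 6, but its mean level was under 1, which kept it out of the main test. With no filter on level its estimate was 2.06 ± 0.58 and did not pass (limma adjusted p = 0.414). IL31RA, whose product pairs with OSMR for interleukin-31, had a value in 5 libraries and was not tested. Its differences were 3.54 at 6 h and 3.16 at 48 h, and at 24 h a value was missing. No level was worked out for IL31RA.

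IL4R (ENSG00000077238.14, chr16:27313668-27364778, plus strand) encodes the alpha chain of the interleukin-4 receptor, shared with the interleukin-13 receptor, and is known as a STAT6-coupled chain of alternatively activated macrophages. Its level was 8.10, 8.52 and 11.4 at 6, 24 and 48 h in IL-6 libraries, against 3.02, 5.50 and 5.40 in control libraries. No control library reached an IL-6 library. The differences were 1.42, 0.63 and 1.08, and the estimate over the pairs was 1.05 ± 0.23, or 2.06-fold (limma adjusted p = 0.161), the lowest adjusted p among the 9 tested chains. Restricting the test to genes of mean level 5 or more gave an adjusted p of 0.0843 by limma, which still did not pass. IL13RA1, its partner for interleukin-13, stood at levels of 29.7, 27.1 and 28.9 with IL-6, against 30.7, 33.9 and 27.0 in control libraries (-0.09 ± 0.14, limma adjusted p = 0.901).

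IL21R (ENSG00000103522.16, chr16:27402174-27452042, plus strand) encodes the ligand-binding chain for interleukin-21. Its level was 2.41, 3.52 and 4.93 at 6, 24 and 48 h in IL-6 libraries, against 0.483, 2.85 and 2.83 in control libraries. The groups overlapped, because the IL-6 library of 6 h lay below the later control libraries. The differences were 2.32, 0.31 and 0.80, so most of the estimate of 1.14 ± 0.41 (limma adjusted p = 0.413) came from 6 h, where the control library was at its lowest. Leaving out the 6 h pair reduced the estimate to 0.55. IL21R-AS1, a non-coding gene on the opposite strand, was at a mean level of 0.0743.

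IL2RG (ENSG00000147168.13, chrX:71107404-71112108, minus strand), the chain that IL7R, IL4R and IL21R share, had differences of both signs. Its level was 2.01, 4.03 and 7.0 at 6, 24 and 48 h in IL-6 libraries, against 3.47, 5.0 and 4.53 in control libraries. The IL-6 libraries held both the lowest and the highest value of the 6. The differences were -0.79, -0.31 and 0.63, with an estimate of -0.16 ± 0.31 (limma adjusted p = 0.926). The effect at 6 h minus the mean effect at 24 and 48 h was -0.94 ± 0.64 and did not pass (limma adjusted p = 1.0). The sign changed between 24 and 48 h, which that contrast averages, so the change of sign itself was not tested. JAK3, the kinase that the common gamma chain binds, had a value in 2 of the 6 libraries.

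**Figure D2:**
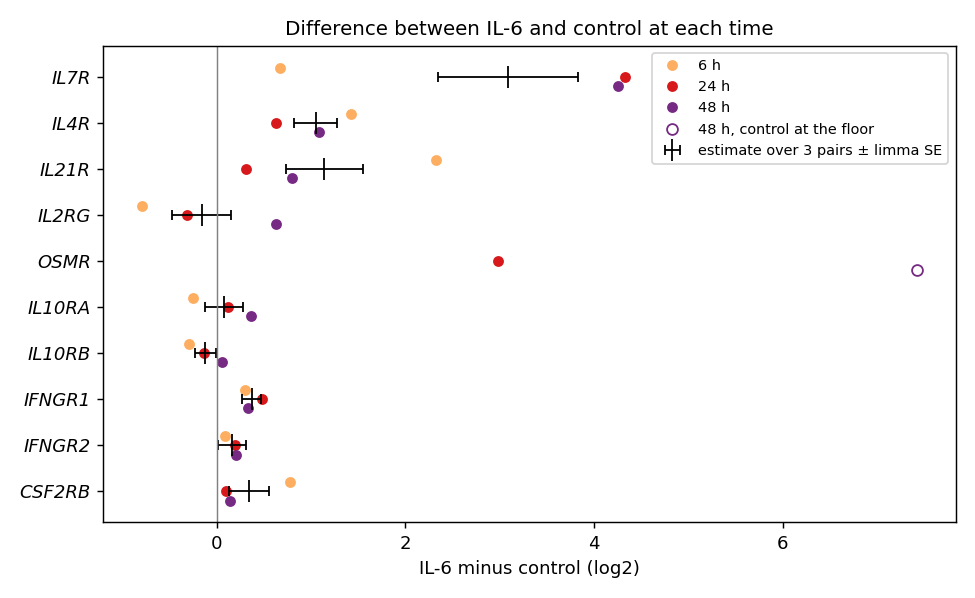
Log2 difference between IL-6 and control (x axis) for each receptor chain (y axis): coloured points are the pairs of 6, 24 and 48 h, black bars the limma estimate over 3 pairs with its SE, and the open point a difference against a control value at the floor. IL7R at 24 and 48 h and OSMR at 48 h lie far to the right of the others, and OSMR at 24 h (2.98) lies nearer to them. IL4R and IL21R lie between 0.31 and 2.32, and IL2RG on both sides of 0. OSMR was not in the main test and has no black bar.

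The 250 bases before the annotated start are shown for the 4 chains with the highest differences, because IL-6 acts on genes through STAT3 and a sequence can be read against known motifs. Promoters came from RefSeq (GRCh38.p14), where 9 of the 10 genes matched, IFNGR1 with 2 starts and hence 10 windows. Each is given 5′ to 3′ on the gene's strand, with GGAAGT, the core bound by ETS factors such as PU.1, in capitals on either strand (ACTTCC where it lies on the other). IL7R lies at chr5:35856641-35856890 and OSMR at chr5:38845762-38846011, while IL4R lies at chr16:27313724-27313973 and IL21R at chr16:27427021-27427270, all on the plus strand.
IL7R: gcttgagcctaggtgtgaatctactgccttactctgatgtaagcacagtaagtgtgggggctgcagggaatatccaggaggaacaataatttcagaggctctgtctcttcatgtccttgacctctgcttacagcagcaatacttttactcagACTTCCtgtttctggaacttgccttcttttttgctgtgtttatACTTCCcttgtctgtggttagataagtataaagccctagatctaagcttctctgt
OSMR: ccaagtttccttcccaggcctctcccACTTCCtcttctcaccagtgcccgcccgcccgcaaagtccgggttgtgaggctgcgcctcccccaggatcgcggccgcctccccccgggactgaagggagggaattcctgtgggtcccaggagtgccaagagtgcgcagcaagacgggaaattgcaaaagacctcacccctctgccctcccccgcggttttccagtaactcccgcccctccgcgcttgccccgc
IL4R: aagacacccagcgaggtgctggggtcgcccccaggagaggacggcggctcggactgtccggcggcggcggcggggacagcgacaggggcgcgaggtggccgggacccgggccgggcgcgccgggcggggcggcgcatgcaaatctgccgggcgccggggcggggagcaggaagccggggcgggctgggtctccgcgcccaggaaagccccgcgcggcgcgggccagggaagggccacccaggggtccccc
IL21R: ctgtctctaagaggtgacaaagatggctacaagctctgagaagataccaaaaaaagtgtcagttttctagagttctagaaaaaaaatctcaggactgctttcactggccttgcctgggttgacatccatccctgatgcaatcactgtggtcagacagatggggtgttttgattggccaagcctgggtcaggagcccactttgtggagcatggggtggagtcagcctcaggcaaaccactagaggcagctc
The STAT motif TTCNNNGAA was in 0 of the 10 windows and in 6.57% of all 35116 promoter windows, searched on both strands. The same TTC and GAA with 4 bases between them were in 0 of the 10 and 5.38% of all. An interferon-response motif, a pair of GAAA with 2 bases between them, was in 0 of the 10 and 3.02% of all. The ETS core was in 4 of the 10 windows, those of IL7R (first base at -98 and -55 from the start), OSMR (-224) and both starts of IFNGR1, and in 19.5% of all windows. The IFNGR1 windows overlap and hold the same single match. By base composition the windows ranged from 43.6% G and C in IL7R to 80.8% in IL4R. These matches describe the letters of these windows and say nothing of binding. The deposited table starts IL7R at 35852695, IL21R at 27402174 and IL10RA at 117986370, each far upstream of the RefSeq window used here, and IL4R, IL2RG and IFNGR1 upstream of a window by shorter distances. OSMR starts at 38845858 in the deposited table, inside its window, so part of the bases shown lie after that start. Other starts of these genes are not covered.

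For the interferon gamma receptor, both chains were slightly higher with IL-6 at every time. IFNGR1, the ligand-binding chain, had centred log2 values of -0.06, 0.34 and 0.27 at 6, 24 and 48 h in IL-6 libraries, against -0.35, -0.14 and -0.06 in control libraries. The highest control value was just below the lowest IL-6 value. The differences were 0.30, 0.48 and 0.33, the second-smallest spread among the 9 tested chains (SD 0.10), and the estimate was 0.37 ± 0.10, or 1.29-fold (limma adjusted p = 0.295). IFNGR2, the second chain needed for signalling, was at levels of 17.7, 24.3 and 18.6 with IL-6, against 16.6, 21.4 and 16.3 in control libraries. Its groups overlapped, and its estimate was 0.16 ± 0.15, or 1.12-fold (limma adjusted p = 0.819). TMEM50B, on the opposite strand, overlaps IFNGR2 over 46864 bases of gene span, introns included, at a mean level of 38.4. Whether exons overlap was not examined, and where they do, reads of the 2 genes may not be separable. The differences of TMEM50B were 0.32, 0.20 and -0.25.

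For the interleukin-10 receptor, neither chain passed the test between agents, and both had small estimates. IL10RA, the ligand-binding chain, was at levels of 5.19, 11.6 and 15.9 with IL-6, against 6.16, 10.6 and 12.4 in control libraries (0.08 ± 0.20, limma adjusted p = 0.943). IL10RB, which is also a chain of the interleukin-22 and interferon lambda receptors, had centred log2 values of -0.53, 0.24 and 0.11 with IL-6, against -0.24, 0.37 and 0.05 in control libraries (-0.12 ± 0.11, limma adjusted p = 0.817). For both chains the IL-6 library was the lower one at 6 h and the higher one at 48 h. The other row that overlaps IL10RB on its strand, ENSG00000249624, was at a mean level of 0.637.

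CSF2RB was at levels of 8.20, 9.02 and 11.5 at 6, 24 and 48 h with IL-6, against 4.77, 8.39 and 10.4 in control libraries. The difference was 0.78 at 6 h and 0.10 and 0.14 later, with an estimate of 0.34 ± 0.21 (limma adjusted p = 0.697), and 0.12 without the 6 h pair. Of the alpha chains that join it, CSF2RA, for GM-CSF, had differences of -0.21, -0.61 and 0.49, and IL3RA, for interleukin-3, of 0.26, 0.12 and 0.32. IL5RA had a value in 1 library only. IL3RA and CSF2RA lie in a region shared by the X and Y chromosomes and CSF2RB has a pseudogene nearby (CSF2RBP1), and how reads with several matches were counted is not stated in those sources.

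At single times, with 1 library per condition and hence no replicate check, a 2-fold distance in either direction was used as a description. IL4R and IL21R were that far apart at 6 h, IL7R at 24 h, and IL7R and IL4R at 48 h. That is 2, 1 and 2 of the 9 chains with 6 values, and all were higher with IL-6. Of all tested genes 3.44%, 2.74% and 3.5% were at least 2-fold higher at these times and 6.88%, 7.0% and 6.77% at least 2-fold apart, and of those at mean level 1 to 10, where IL7R, IL4R and IL21R lie, 14.2%, 14.0% and 13.3%.

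Both chains of the interleukin-10 receptor passed the test for time in culture, each at 1 of the later times. With both agents in 1 model, 24 h and 48 h were each set against 6 h, and the 2 comparisons share the 6 h libraries. IL10RA rose by 1.32 ± 0.24 at 48 h (limma adjusted p = 0.0177) and stood at 0.97 ± 0.24 at 24 h, short of the threshold (limma adjusted p = 0.0743). Its 2 libraries of 6 h were the lowest of the 6. IL10RB rose by 0.69 ± 0.14 at 24 h (limma adjusted p = 0.0349) and was at 0.47 ± 0.14 at 48 h (limma adjusted p = 0.0864). The call of IL10RB was lost when library medians were made equal (0.59, limma adjusted p = 0.0705) or the level filter was dropped (0.69, limma adjusted p = 0.0663). Without the variance trend neither call held, at unchanged estimates of 1.32 for IL10RA (limma adjusted p = 0.199) and 0.69 for IL10RB (limma adjusted p = 0.264). In each comparison 1 of the 9 chains was called, where 1.95% of all tested genes were called at 24 h (1.66% higher) and 3.98% at 48 h (2.55% higher). At an unadjusted p under 0.05, 5 of 9 were higher at 24 h and 7 of 9 at 48 h, beside 12.7% and 13.3% of all tested genes. At 48 h all 9 had a positive estimate, with a median of 0.67 against 0.07 over all tested genes. At 24 h, 8 of 9 had one (median 0.48 against 0.11), IL7R being the exception at -1.20 ± 0.91. With equal library medians IFNGR2, at 0.03 for 48 h, turned to -0.04. Among the monocytic markers LYZ, the lysozyme gene, fell by 1.78 at 48 h (limma adjusted p = 0.000527) and TYROBP, an adaptor gene, fell by 0.69 (limma adjusted p = 0.0183), while the other 11 did not pass. NKG7, the 1 tested T and NK marker, rose by 0.91 at 24 h (limma adjusted p = 0.0349) and by 1.01 at 48 h (limma adjusted p = 0.0160). The part of these markers in the receptor values was not tested. Both 6 h libraries lay below all 4 later ones in 5 of the 9 chains, as in 18.3% of tested genes. IL21R had the highest estimate at 48 h (1.79 ± 0.50), above IL10RA, and IL2RG (1.09 ± 0.38) and CSF2RB (0.81 ± 0.26) followed IL10RA, none of these 3 past the threshold (limma adjusted p = 0.0750, 0.134 and 0.111).

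**Figure D3:**
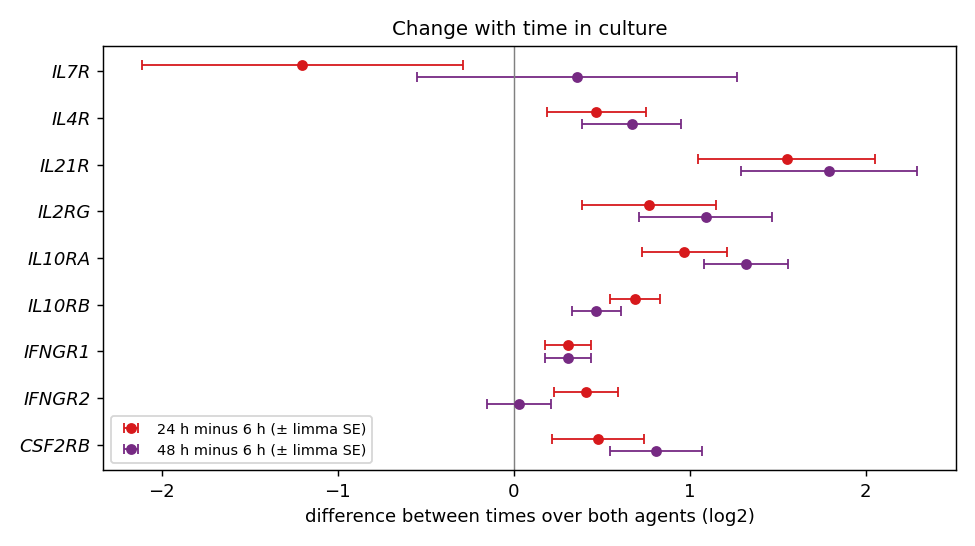
Log2 difference between 24 h and 6 h (red) and between 48 h and 6 h (purple) over both agents (x axis), with limma SEs, for the 9 chains with 6 values (y axis). Most chains lie right of 0, IL10RA at 1.32 for 48 h, while IL7R has the widest errors and a negative estimate at 24 h.

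None of the remaining class I and class II cytokine receptor chains that were tested passed for IL-6 against control. Of 34 such genes 15 were tested by limma, and 0 were called, 3 at an unadjusted p under 0.05, beside 1222 of all 13509 tested genes in either direction. Of the 15, 6 had a positive and 9 a negative estimate, with a median of -0.06. Among those farthest from 0 were IL11RA, the binding chain for interleukin-11 (-0.58 ± 0.26), IL6R, the binding chain for IL-6 itself (-0.28 ± 0.12), and IL12RB2 (-0.28 ± 0.16). With time in culture 3 of the 15 rose at 48 h, where 2.55% of all tested genes were called higher. They were CSF2RA by 1.46 (limma adjusted p = 0.0131), IL3RA by 1.11 (limma adjusted p = 0.0211) and CSF3R, the G-CSF receptor gene, by 0.83 (limma adjusted p = 0.0207). At 24 h 0 were called by limma, and 6 had an unadjusted p under 0.05, beside 2377 of all 13509.

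Among 20 receptors of other families 11 were tested, and 0 were called for IL-6 by limma. At an unadjusted p under 0.05 there were 2, beside 1222 of all 13509 tested genes. The stem-cell factor receptor gene KIT (-1.59 ± 0.40) and FLT3 (-0.56 ± 0.14) had the lowest estimates, followed in size by IL1RAP (0.39 ± 0.26) and SIGIRR (-0.27 ± 0.13). TNFRSF1B, a TNF receptor gene, rose by 0.99 at 48 h against 6 h (limma adjusted p = 0.0255). Of 18 ligand genes for the chains described here, 11 had no value in any library, IFNG, IL4, IL7 and CSF2 among them, and 0 had both 6 values and a mean level of 1. Of 17 tested JAK, STAT and feedback genes, STAT3 alone was called for IL-6, at 0.78 ± 0.12 (limma adjusted p = 0.0262). SOCS3, a feedback inhibitor, had an estimate of 2.54 ± 0.48 (limma adjusted p = 0.109), CISH of 0.46 ± 0.16, CBL of -0.45 ± 0.21 and SOCS1 of 0.42 ± 0.47. PTPN6, the phosphatase gene SHP-1, rose by 1.21 at 48 h against 6 h (limma adjusted p = 0.00230).

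Genes with the most similar pattern were sought for the chains with the highest and the lowest IL-6 estimate, among 7569 genes of mean level 10 or more. Similarity was the Pearson correlation of the centred log2 values over the 6 libraries, after library medians were made equal. For IL7R the most similar genes were DPYD (0.983), DDX55 (0.983) and IDH3G (0.979). Their own differences between IL-6 and control at 48 h were 0.79, 0.16 and 0.27, far below the 4.25 of IL7R. For IL2RG they were SEC24D (0.989), WDR49 (0.988) and VPS45 (0.986), each lower with IL-6 at 6 and 24 h and higher at 48 h. With 6 libraries and that many genes, correlations of this size are a description of these libraries.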

How the data were processed

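RNA-seq libraries of THP-1 cells, 3 with IL-6 and 3 controls, were analysed. Amplification used a SMART-seq low-input kit and libraries were made with Nextera XT, per the labels' protocols; neither marks strand. The genome build was hg38, per the submitters' processing notes. Aligner, read counting and normalization were not given in the sources used here. The deposited values are log2 values, titled a processed signal per the file headers. Their mean over each gene's listed libraries is 0 within 1.8e-07, and the files hold no counts.

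With 1 offset per library removed, the linear values of a gene had whole-number ratios to each other, which gave levels in steps of 0.001 for 15717 of the 17388 genes with 6 values (90.4%). Matching used relative tolerances of 2e-06 up to 5000 steps and 6e-07 above, up to a level of 100. The other 1671 genes were treated as high. The recovery and the test were also run on simulated data.

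Limma 3.58.1 (R 4.3.3) was run on the log2 values with time and agent as terms, variance trend on level and robust empirical Bayes, over the 13509 genes that had 6 values and reached a mean level of 1. It has 2 residual degrees of freedom (1 in the model of the 6 h effect) and a median prior of 8.17. P-values were adjusted by Benjamini-Hochberg over all tested genes, with a threshold of 0.05. No condition was repeated, and no label ties the 3 pairs to separate cultures, so p-values measure the spread between these libraries, which may be technical. For IL-6 against control, that spread includes change of the difference between the 3 times, so an effect that varies with time counts as error. Values after ± are limma SEs. The genes, lists and tests were chosen with earlier results of these data known. All 10 receptor chains are named, and from each list the genes that passed and up to 4 with the largest differences (1 gene of these is not reported here); T-cell and B-cell markers, epithelial markers and monocytic markers served as checks. Of 5 B-cell markers 2 were tested and of 9 epithelial and fibroblast markers 1, and limma called 0 of them for IL-6 (0 at an unadjusted p under 0.05). Alternatives changed the level filter, the variance model, the scaling, the pseudocount, the time term and the pairs used.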

Additional observations from a re-analysis of the deposited data

Results flagged for a closer look

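For 3 chains the sign of the difference between IL-6 and control was not the same at all 3 times. The distance between the highest and the lowest difference was 1.41 log2 units for IL2RG, 0.60 for IL10RA and 0.35 for IL10RB. In each, the 6 h pair was the lowest and the 48 h pair the highest. With 1 pair per time these distances themselves were not tested. The contrast of 6 h with the mean of the later times did not pass for any of the 3, each with a limma adjusted p of 1.0.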

How the results depend on the processing

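For the 9 tested chains, 82 of 85 alternative IL-6 estimates kept their direction and their side of the threshold. The exceptions were IL7R without the 6 h pair (4.29, past the threshold), IL10RA without the 48 h pair (-0.06, the sign turned; 0.24 without the 6 h pair) and IL2RG without the 6 h pair (0.16, the sign turned; -0.55 without the 48 h pair). Changing the level filter, the variance model or the time term cannot change an estimate in this balanced design. Direction was therefore fixed in advance in those settings. All 9 chains started without a call, and several settings called few or no genes over the whole set. The count of 82 is thus no measure of how firm the estimates are. The number of chains called was 0 to 1 when a pair was left out. Over all genes, 35 were called for IL-6, against 16 to 121 with a pair left out (fewest without 24 h, most without 6 h), 13 without the level filter, 13 with non-robust empirical Bayes, 4 without the time term and 0 without the variance trend (458 higher and 624 lower at an unadjusted p under 0.05). With equal medians the calls at 24 h against 6 h were 141 higher and 64 lower, in place of 224 and 40, and at 48 h 284 and 290, in place of 344 and 193. For 24 h against 6 h the count of 264 became 146 without the level filter and 0 without the trend, and for 48 h the count of 537 became 268 and 0 (without the trend, at an unadjusted p under 0.05, 1495 higher and 421 lower at 24 h, 1558 and 698 at 48 h). The 1 chain called at 24 h was lost (0 called) with no level filter, no trend, equal medians or log2(level + 1), which has no level for IL10RB, and the 1 called at 48 h without the trend (0 called). IFNGR2 at 48 h against 6 h turned to -0.04 with equal medians. With log2(level + 1), 1 chain in place of 2 was 2-fold apart at 48 h. For the other changes the cause was not tested. Leaving out an agent would leave the time comparisons no residual degrees of freedom. Depth is unknown, so no counting error can be given for IL7R or OSMR at their low control levels.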
